A study of Mus musculus with 40 samples.

Results

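The mitosis genes described here are 46 mouse genes whose products take a dividing cell from the start of mitosis to the separation of the daughter cells. They were listed by gene symbol, and a gene's measurement was taken from the array probes that the platform's gene table pairs with that symbol. The table gave 90 probes for 44 of the 46 genes. Ccnb1 (cyclin B1) and Mki67 (the Ki-67 protein of the chromosome surface) had no probe in it and were not analysed here. A probe entered the tests if its signal was detected above background on at least 5 of 40 arrays, whatever the group, and 39 of the 46 genes passed among 10730 genes tested. Of these 39, 32 were detected on all 40 arrays.

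The arrays measured total RNA from T helper cells of C57BL6 mice aged 8 to 12 weeks. The mice were either wild type (WT) or lacked both copies of Malt1 (Malt1-/-), which encodes a scaffold and protease that carries antigen receptor signals to NF-kappaB in lymphocytes. Naive T cells, CD4+ and CD62L+, came from spleen and lymph nodes and were induced to become Th1 cells (which make interferon-gamma) or Th17 cells (which make interleukin-17). RNA was taken 48 h or 72 h later. The 8 groups were thus WT Th1, WT Th17, Malt1-/- Th1 and Malt1-/- Th17 cells at each of the 2 times, with 5 arrays in each. From the labels it is not known which part of Malt1 is deleted, how the cells were stimulated or whether the 5 arrays of a group came from separate mice. P-values therefore measure the spread between these arrays, which may be technical. Cultures of this kind can hold other cells than the induced type, and in such bulk samples fewer cells of a type and less RNA per cell cannot be told apart.

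Naive T cells rest outside the cell cycle and divide quickly once they are activated. Before division, Cdk1 bound to A- and B-type cyclins drives entry into mitosis, condensins and topoisomerase II compact and untangle the chromosomes, and kinesin motors build the spindle. The spindle checkpoint holds the cell until each chromosome is attached at its kinetochore. Cdc20 then activates the anaphase-promoting complex, a ubiquitin ligase that marks securin and cyclin B for destruction, and the cell divides by cytokinesis. Transcripts of these genes accumulate in G2 and mitosis and are low in resting cells. Many of their promoters carry a cell cycle homology region (CHR), where the DREAM complex represses them in resting cells and MuvB complexes with B-Myb and FoxM1 activate them later, often with CCAAT boxes bound by NF-Y upstream.

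Promoter sequence was the feature the genes shared that had no part in choosing them. RefSeq windows of GRCm38.p6, from 250 bases before to 50 after a transcript start, matched 39 of the 46 genes in 41 windows, because Prc1 and Ect2 had 2 each. The CHR letters TTTGAA or TTCGAA, on either strand, were present in 33 of these 41 windows (80.5%) and in 6316 of all 32851 windows in the table (19.2%). The CCAAT letters, on either strand, were present in 32 of the 41 (78%) against 37.4% of all windows, and both motifs stood together in 30 (73.2%) against 7.52%. The windows of a DNA replication gene list, another proliferation group, held the CHR letters in 6 of 35 cases (17.1%). The E2F letters TTCGCGC or TTGGCGC, on either strand, were in 8 of the 41 windows (19.5%), in 34.3% of the replication windows and in 3.89% of all windows. Within 40 bases before to 50 after the start, a range chosen after the positions were seen, the CHR letters stood in 30 of the 41 windows (73.2%) and in 4.74% of all windows. TTCGAA reads the same on both strands, no motif contains another, and matches of the E2F and CCAAT letters can share bases. A match is a description of letters and not a shown binding site. The 8 windows without CHR letters were those of Birc5, Ccnb1, Cenpe, Mad2l1, Ncaph, Nuf2, Nusap1 and Pttg1.

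These stretches run from 130 bases before to 50 bases after the start, 5′ to 3′ on the gene's own strand, for 9 genes called in the genotype comparison of Th17 cells at 72 h or in its difference from Th1 cells. Of the genes called there, Birc5 held neither motif, Prc1 had several windows and Incenp had none in the table, so they are not shown. The stretches show how near the start the CHR letters stand. Capitals mark the CHR and the CCAAT letters, read on either strand.
Plk1 (chr7:122159305-122159484, plus strand): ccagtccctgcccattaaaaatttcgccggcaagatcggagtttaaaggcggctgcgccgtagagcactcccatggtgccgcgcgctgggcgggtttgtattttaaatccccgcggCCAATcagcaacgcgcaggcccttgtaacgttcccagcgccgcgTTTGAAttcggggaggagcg
Cdc20 (chr4:118437294-118437473, minus strand): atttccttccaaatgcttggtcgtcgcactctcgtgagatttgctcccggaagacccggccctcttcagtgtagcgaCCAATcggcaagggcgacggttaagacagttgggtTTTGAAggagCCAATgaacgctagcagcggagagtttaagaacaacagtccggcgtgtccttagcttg
Bub1b (chr2:118598081-118598260, plus strand): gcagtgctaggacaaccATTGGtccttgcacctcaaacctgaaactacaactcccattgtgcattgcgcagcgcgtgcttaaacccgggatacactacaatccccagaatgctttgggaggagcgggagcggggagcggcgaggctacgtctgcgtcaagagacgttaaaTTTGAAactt
Cenpa (chr5:30666756-30666935, plus strand): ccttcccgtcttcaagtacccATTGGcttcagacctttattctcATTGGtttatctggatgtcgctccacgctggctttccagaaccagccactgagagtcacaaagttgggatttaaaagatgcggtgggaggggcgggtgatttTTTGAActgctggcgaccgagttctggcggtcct
Kif22 (chr7:127042371-127042550, minus strand): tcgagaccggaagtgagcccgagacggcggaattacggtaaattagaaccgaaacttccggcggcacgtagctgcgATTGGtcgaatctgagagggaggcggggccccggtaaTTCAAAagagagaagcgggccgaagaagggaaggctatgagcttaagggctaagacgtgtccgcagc
Kif2c (chr4:117178723-117178902, minus strand): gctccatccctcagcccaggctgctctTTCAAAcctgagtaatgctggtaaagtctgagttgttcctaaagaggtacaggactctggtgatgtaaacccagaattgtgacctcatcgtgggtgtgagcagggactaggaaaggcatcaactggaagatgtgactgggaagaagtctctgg
Kif4 (chrX:100625935-100626114, plus strand): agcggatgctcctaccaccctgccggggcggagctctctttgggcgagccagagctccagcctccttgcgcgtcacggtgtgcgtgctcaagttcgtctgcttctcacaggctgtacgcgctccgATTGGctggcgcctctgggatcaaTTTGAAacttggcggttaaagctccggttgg
Kif23 (chr9:61946750-61946929, minus strand): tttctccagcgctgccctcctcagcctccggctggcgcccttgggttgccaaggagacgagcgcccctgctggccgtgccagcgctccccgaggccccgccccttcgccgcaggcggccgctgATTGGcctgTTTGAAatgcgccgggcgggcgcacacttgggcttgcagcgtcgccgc
Top2a (chr11:99024140-99024319, minus strand): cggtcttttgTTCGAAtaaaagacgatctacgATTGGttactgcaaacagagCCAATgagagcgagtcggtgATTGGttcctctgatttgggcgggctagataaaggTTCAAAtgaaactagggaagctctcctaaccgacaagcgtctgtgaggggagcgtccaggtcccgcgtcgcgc
In 8 of these 9 stretches a CHR match began between positions -23 and 41 relative to the start, with CCAAT letters upstream of it. Kif2c held its CHR letters at position -103 and no CCAAT letters in the stretch.

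Levels are given on a log2 scale, as background-corrected and quantile-normalised signals of each gene's brightest probe, and a difference of 1 on this scale is a doubling. Each array detected 14640 to 17409 probes, with a median raw signal of 127.1 to 193.3. Malt1 lay at 5.92 to 9.10 on the 20 Malt1-/- arrays and at 10.35 to 13.11 on the 20 WT arrays, so every array fell on its label's side, although whether the probe lies in the deleted part is not known. The T cell receptor genes Cd3d, Cd3e and Cd3g were detected on all 40 arrays, with group means from 12.35 to 13.87, and the Cd4 probe was detected on all 40 at 6.59 to 7.93. Il17f had group means of 12.40 to 14.52 in the Th17 groups against 4.49 to 5.55 in the Th1 groups, and Ifng 13.24 to 14.50 in the Th1 groups against 6.51 to 8.14 in the Th17 groups. Il17a had group means of 10.68 and 10.86 in WT Th17 cells at 48 h and 72 h, 7.83 and 7.40 in Malt1-/- Th17 cells, and 4.82 to 4.97 in the Th1 groups. By correlation over all genes, 8 arrays were closer to another group's mean than to their own, in each case a group of the same lineage. They were replicate 5 of WT Th17 48 h, replicates 4 and 5 of WT Th17 72 h, replicate 2 of Malt1-/- Th17 72 h, replicate 1 of WT Th1 48 h, replicate 4 of WT Th1 72 h, replicate 2 of Malt1-/- Th1 48 h and replicate 2 of Malt1-/- Th1 72 h. The main counts are given below with and without these 8 arrays. Because the arrays were picked by the same expression values, leaving them out can itself raise a count.

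Over the 8 groups, the mitosis genes stood highest in Malt1-/- Th17 cells at 72 h and lowest in Malt1-/- Th1 cells at 72 h. Of the 39 tested genes, 20 had their highest group mean in the former and 0 their lowest, while 17 had their lowest group mean in the latter and 0 their highest. The same count over all genes was not made, so how particular this order is to the mitosis genes is not known. The mean log2 level over the 39 genes ran from 9.59 to 9.73 on the 5 Malt1-/- Th17 72 h arrays and from 9.27 to 9.44 on the 5 WT Th17 72 h arrays. It ran from 9.03 to 9.33 on the Malt1-/- Th1 72 h arrays and from 9.18 to 9.52 on the WT Th1 72 h arrays. At 48 h the ranges were 9.24 to 9.56 in WT Th17, 9.42 to 9.62 in Malt1-/- Th17, 9.18 to 9.46 in WT Th1 and 9.31 to 9.46 in Malt1-/- Th1. The Malt1-/- Th17 72 h arrays thus lay above every array of the other groups except Malt1-/- Th17 48 h, with which they overlapped.

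**Figure D1:**
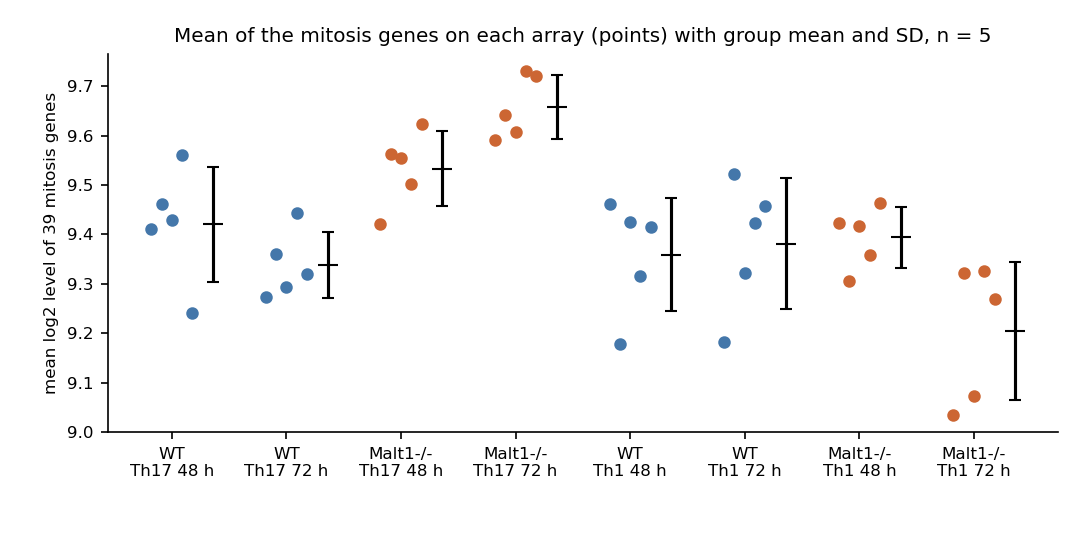
Mean log2 level of the 39 tested mitosis genes on each of the 40 arrays (vertical axis, log2 signal), by lineage and time; each point is an array, blue for WT and orange for Malt1-/-, with the mean and SD of each group of 5 in black. The Malt1-/- Th17 72 h points, from 9.59 to 9.73, sit apart from the WT Th17 72 h points at 9.27 to 9.44.

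**Figure D2:**
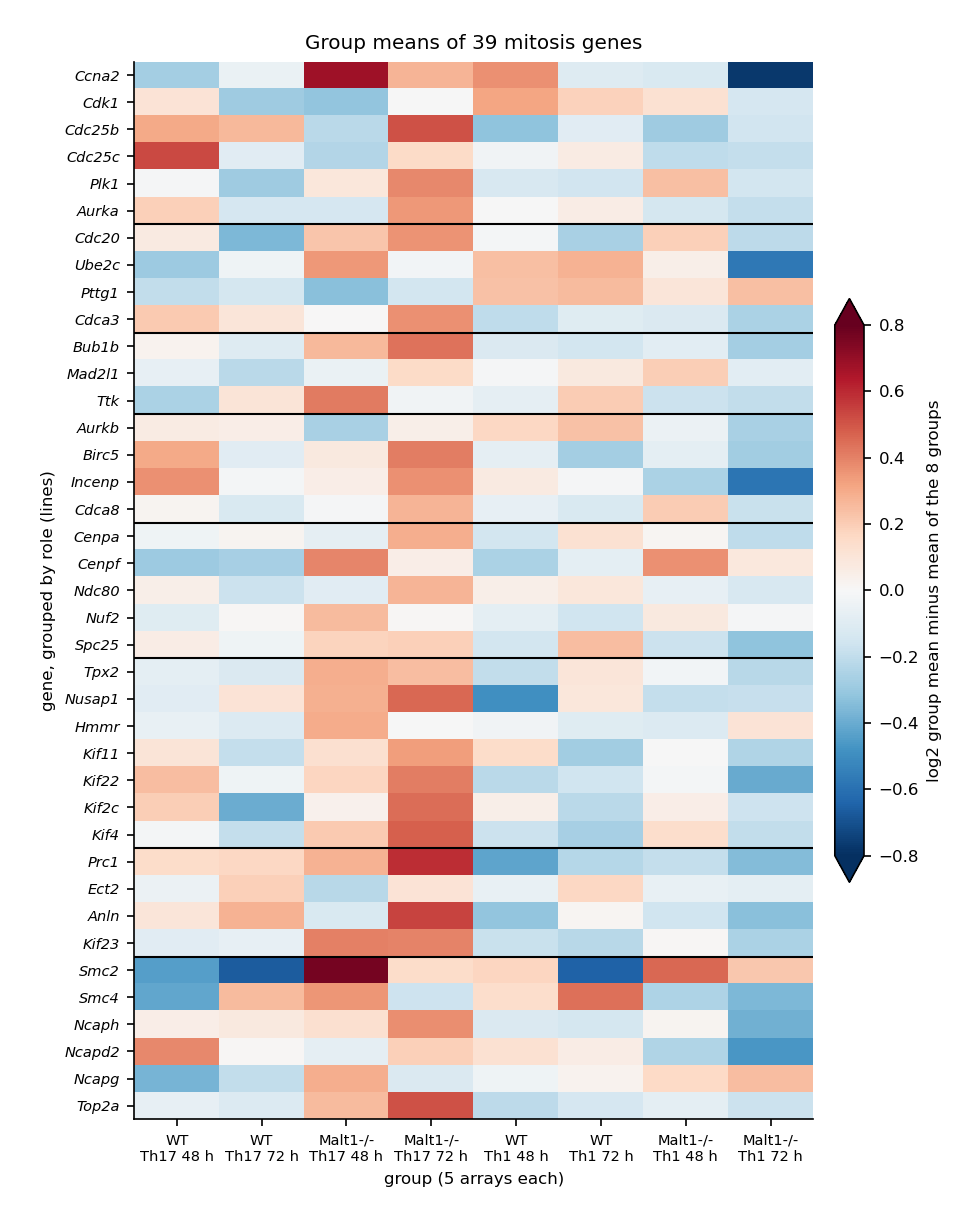
Group mean of each of the 39 tested mitosis genes, as log2 difference from the gene's mean over the 8 groups (colour), with genes in rows by role and groups in columns. The Malt1-/- Th17 72 h column holds the highest mean of 20 genes and the Malt1-/- Th1 72 h column the lowest mean of 17.

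In Th17 cells at 72 h, Malt1-/- against WT, 10 of the 39 mitosis genes were higher and 0 lower at a limma adjusted p under 0.05, against 2.89% of all genes higher and 1.53% lower. The 10 were the spindle motors Kif2c, Kif4 and Kif22, the kinase Plk1, the anaphase activator Cdc20, the checkpoint kinase Bub1b, the passenger protein Birc5 (survivin), the midzone proteins Prc1 and Kif23, and topoisomerase II alpha, Top2a. The 5 Malt1-/- arrays all lay above the 5 WT arrays in 14 of the 39 genes, against 3.01% of all genes. The difference was above 0 in 34 of the 39, with a median of 0.33 and a range of -0.42 to 0.84, beside a median of 0.04 over all genes. Among the 32 genes detected on all 40 arrays the count was the same 10, with a median of 0.38.

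Kif2c, a kinesin that takes microtubules apart at the centromere, had the largest of these differences. Its levels were 9.73, 9.93, 9.90, 9.72 and 9.99 in Malt1-/- Th17 cells at 72 h and 8.92, 9.11, 8.66, 9.10 and 9.27 in WT. No array of one genotype reached the range of the other, and the difference was 0.84 ± 0.13 (SE), or 1.79-fold, at an adjusted p of 4.31e-05. Cdc20, the activator of the anaphase-promoting complex, read 12.29, 12.32, 12.07, 11.99 and 12.31 in Malt1-/- and 11.39, 11.64, 11.11, 11.55 and 11.68 in WT. These ranges were also apart, by 0.72 ± 0.15 (1.65-fold, adjusted p = 0.00415). Kif4, a chromosome-bound kinesin that works in spindle midzone formation, read 10.40, 10.65, 10.48, 10.46 and 10.46 in Malt1-/- and 9.75, 9.87, 9.71, 9.86 and 9.91 in WT. All Malt1-/- arrays stood clear above the WT arrays for Kif4, with a difference of 0.67 ± 0.11 (1.59-fold, adjusted p = 0.000258).

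Plk1, the polo-like kinase of mitotic entry and spindle formation, read 11.28, 11.43, 11.36, 11.37 and 11.45 in Malt1-/- Th17 cells at 72 h and 10.52, 11.11, 10.68, 10.67 and 10.57 in WT. WT replicate 2 stood near the Malt1-/- arrays but below them, and the difference was 0.67 ± 0.18 (1.59-fold, adjusted p = 0.0268). Top2a, which untangles sister chromatids, read 11.92, 12.02, 11.76, 11.50 and 12.03 in Malt1-/- and 11.32, 11.33, 10.87, 11.21 and 11.44 in WT. The lowest Malt1-/- array was just above the highest WT array, and the difference was 0.61 ± 0.18 (1.53-fold, adjusted p = 0.0436). Bub1b (BubR1), the checkpoint kinase that restrains Cdc20, read 11.94, 11.96, 11.68, 11.72 and 11.90 in Malt1-/- and 11.32, 11.28, 10.93, 11.57 and 11.41 in WT. Bub1b too showed no overlap, with a difference of 0.54 ± 0.11 (1.45-fold, adjusted p = 0.0042). The other 4 called genes differed by 0.43 to 0.50. Of these, Birc5, Kif23 and Kif22 showed no overlap, and Prc1 overlapped and had an adjusted p that rounds to 0.05.

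**Figure D3:**
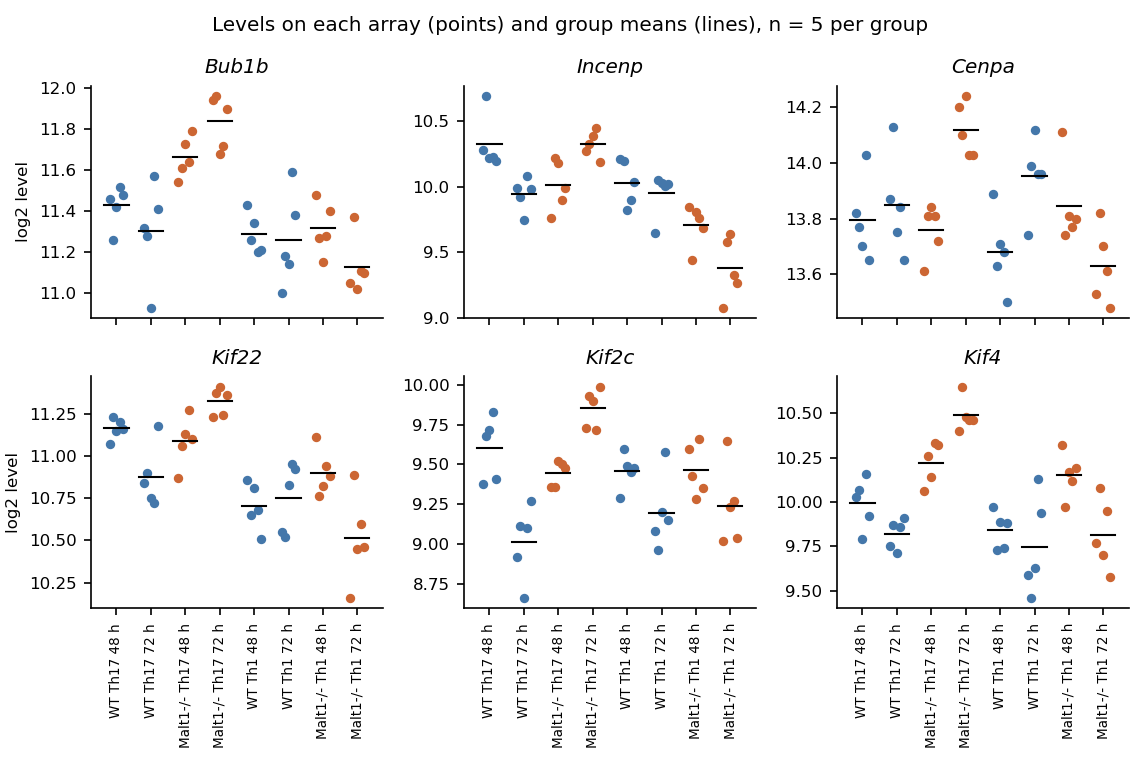
Log2 level per array (vertical axis) of Bub1b, Incenp, Cenpa, Kif22, Kif2c and Kif4 in the 8 groups (horizontal axis); each point is 1 of 5 arrays, the line is the group mean, blue is WT and orange Malt1-/-. In Kif2c the Malt1-/- Th17 72 h points, from 9.72 to 9.99, lie above the WT Th17 72 h points, from 8.66 to 9.27.

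By role, the spindle group (Tpx2, Nusap1, Hmmr and the motors Kif11, Kif22, Kif2c and Kif4) had 3 of its 7 tested genes called higher in Malt1-/- Th17 cells at 72 h, all 7 with a difference above 0 and a median of 0.45. Kif11, the motor that pushes the spindle poles apart, was not among the called genes, at 9.38, 9.34, 9.18, 9.17 and 9.41 in Malt1-/- and 8.54, 8.82, 8.53, 8.71 and 9.27 in WT, where WT replicate 5 fell within the Malt1-/- range. The mitotic entry group had 1 of 6 called, all 6 above 0 and a median of 0.30. Its central kinase Cdk1 read 11.28, 11.35, 11.53, 11.42 and 11.32 in Malt1-/- and 11.35, 11.30, 11.02, 11.09 and 10.76 in WT, which overlapped. The cytokinesis group had 2 of 4 called, the anaphase group (Cdc20, Ube2c, Pttg1, Cdca3) 1 of 4 and the checkpoint group 1 of 3. In the chromosomal passenger complex, which corrects faulty attachments, 1 of 4 was called and 3 of 4 showed no overlap. The exception there was Aurkb, the kinase of the complex, at 10.86, 11, 11.10, 11.08 and 10.80 in Malt1-/- and 11.14, 10.95, 11.36, 10.72 and 10.68 in WT. Among the 5 tested centromere and kinetochore genes 0 were called, with a median of 0.27. The condensin and topoisomerase group had 1 of 6 called, Top2a. Smc4, a condensin subunit, had the lowest difference of the 39, at -0.42 and not called, with 7.83, 7.89, 7.64, 9.12 and 8.38 in Malt1-/- and 7.95, 8.04, 9.02, 9.20 and 8.75 in WT.

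The count of 10 rested in part on single arrays. It was 5 without WT Th17 72 h replicate 1, 4 without replicate 3, and 5 without Malt1-/- replicate 2 or replicate 5. Leaving out the 8 arrays nearer to a group not their own gave 13. It was 3 with median scaling in place of quantile normalisation, and 2 in a fit on the 10 arrays of the comparison. Kif2c and Kif4 were called in all 20 alternative settings. The call was lost in 1 of them for Cdc20, 2 for Bub1b, 4 for Birc5 and 6 each for Plk1 and Kif22. It was lost in 8 for Kif23, 11 for Top2a and 13 for Prc1.

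The count of other mitosis genes, a list of 62 further genes of the same process with 54 tested, was 9 higher and 0 lower in this comparison, with a median of 0.33. The largest were Mybl2 (B-Myb, a factor that acts at CHR promoters) at 1.04 (adjusted p = 0.00255), Ccnf (cyclin F) at 0.94 (0.00415) and Gtse1 at 0.83 (0.0172). A list of 36 tested DNA replication and nucleotide synthesis genes had 15 higher and 0 lower, with a median of 0.50. The 15 tested cyclin kinase inhibitor and quiescence genes had 0 calls in this or any of the other genotype comparisons.

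Transcripts of myeloid cells moved in the same comparison. Of 9 tested myeloid markers, 4 were higher and 0 lower in Malt1-/- Th17 cells at 72 h, namely S100a8 by 4.50, S100a9 by 3.46, Lyz1 by 2.48 and Fcer1g by 1.32. Another 4 of the 13 listed, Cd14, Itgam, Cd68 and Mpo, gave no tested probe. The mean level of the 9 ran from 6.04 to 7.72 on the Malt1-/- Th17 72 h arrays, from 5.40 to 5.83 on the WT Th17 72 h arrays and from 5.13 to 5.43 on the 20 Th1 arrays. On Malt1-/- Th17 72 h replicates 1 to 5 the myeloid mean was 6.04, 7.47, 6.71, 6.26 and 7.72, and the mean of the mitosis genes was 9.59, 9.64, 9.61, 9.73 and 9.72. Of 8 tested B cell markers 0 were called, and of 4 CD8 and NK markers Nkg7 was higher by 1.13 and Cd8b1 lower by 0.65. Of 9 tested T helper cell markers 0 were higher and 3 lower, Il17a at -3.46 (adjusted p = 1.96e-05), Il17f at -1.67 (0.0441) and Cd4 at -0.89 (0.0303). The part of other cells, or of these T helper genes, in the differences of the mitosis genes was not tested.

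In Th1 cells at 72 h 0 of 39 mitosis genes were higher and 2 lower in Malt1-/- than in WT, with 1.85% of all genes higher and 0.923% lower. Both belong to the chromosomal passenger complex, Incenp, its scaffold, and Aurkb. The differences had a median of -0.17, and were above 0 in 10 of the 39. The kinetochore gene Spc25 was not called by its brightest probe, at -0.57. Its other passed probe, of nearly the same level, gave -0.76, with a limma adjusted p over kept probes of 0.0128.

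Incenp read 9.08, 9.58, 9.64, 9.33 and 9.27 in Malt1-/- Th1 cells at 72 h and 9.65, 10.05, 10.03, 10.01 and 10.02 in WT. WT replicate 1 stood just above the highest Malt1-/- array, so the groups barely stood apart, and Incenp fell by 0.57 ± 0.12 (1.49-fold, adjusted p = 0.00408). Aurkb read 10.30, 10.67, 10.80, 10.68 and 10.84 in Malt1-/- and 10.93, 11.40, 11.32, 11.05 and 11.08 in WT. It was lower on every Malt1-/- array than on any WT array, by 0.50 ± 0.13 (1.41-fold, adjusted p = 0.0235). The other 2 genes of the complex, Birc5 and Cdca8, were not called, with differences of -0.004 and -0.06. The other probes of Birc5 gave -0.03 and 0.005. That of Cdca8 gave -0.45 and was not called over probes.

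The count of 2 was 5 without WT Th1 72 h replicate 1, 4 without WT replicate 4, and 1 without WT replicate 2, WT replicate 3 or Malt1-/- replicate 1. It was 0 with median scaling and 0 in a fit on the comparison's own arrays. Of the other mitosis genes Spag5, a spindle protein (astrin), was the single call, at -0.39 (adjusted p = 0.0439). Of the myeloid markers and of the replication genes 0 were called.

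The difference between these effects, that of Malt1-/- in Th17 cells minus that in Th1 cells at 72 h, was tested in the same fit. It was called above 0 for 5 of 39 mitosis genes and below 0 for 0, against 0.317% and 0.382% of all genes. The median was 0.55, beside 0.03 over all genes, and 35 of 39 differences were above 0. The 5 were Incenp, Kif2c, Kif22, Bub1b and Cenpa, the histone H3 variant of centromeres. The only calls among the other mitosis genes were Cdca2 and Spag5, both at 0.73. Among the replication genes they were Tk1 at 1.01 and Chaf1a at 1.00.

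Of the 5 called mitosis genes, Incenp gave the largest difference of effects, 0.96 ± 0.17 (adjusted p = 0.00263). In Th17 cells at 72 h it read 10.27, 10.33, 10.39, 10.45 and 10.19 in Malt1-/- and 9.99, 9.92, 9.75, 10.08 and 9.98 in WT. Its Malt1-/- arrays lay above the WT arrays in Th17 cells, where the genotype difference alone was not called, and below them in Th1 cells, where it was. Kif2c gave 0.80 ± 0.18 (adjusted p = 0.0178), and its Th1 levels were 9.02, 9.65, 9.23, 9.27 and 9.04 in Malt1-/- against 9.08, 8.96, 9.20, 9.58 and 9.15 in WT. These Th1 ranges overlapped nearly completely.

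Kif22 (Kid), a chromosome-arm motor, gave 0.69 ± 0.16 (adjusted p = 0.0305). It read 11.23, 11.37, 11.41, 11.24 and 11.36 in Malt1-/- Th17 and 10.84, 10.90, 10.75, 10.72 and 11.18 in WT Th17 cells. In Th1 cells it read 10.16, 10.89, 10.45, 10.60 and 10.46 in Malt1-/- and 10.55, 10.52, 10.83, 10.95 and 10.92 in WT. The genotypes were apart in Th17 cells and overlapped in Th1 cells. Bub1b, whose difference of effects was 0.67 ± 0.16 (adjusted p = 0.0278), read 11.05, 11.37, 11.02, 11.11 and 11.10 in Malt1-/- Th1 and 11, 11.18, 11.14, 11.59 and 11.38 in WT Th1 cells at 72 h, which overlapped. Cenpa gave 0.60 ± 0.15 (adjusted p = 0.0364).

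**Figure D4:**
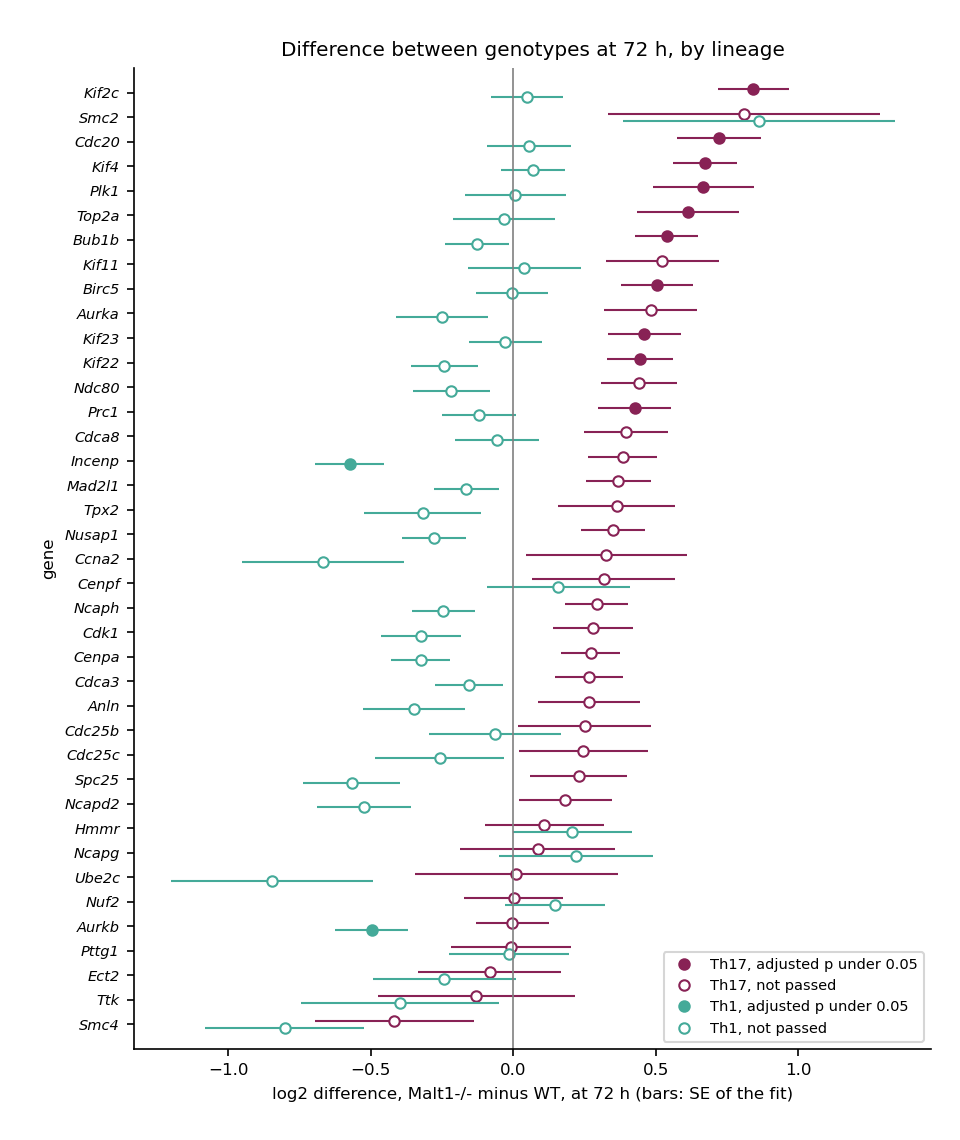
Log2 difference Malt1-/- minus WT at 72 h (horizontal axis) of each tested mitosis gene (rows) in Th17 and in Th1 cells; points are the fitted differences from 5 against 5 arrays and bars their SE, filled where called and open where not. The Th17 differences have a median of 0.33 and the Th1 differences a median of -0.17.

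The count of 5 was 9 without WT Th1 72 h replicate 1 or without Malt1-/- Th1 72 h replicate 2. It was 3 without WT Th17 72 h replicate 1 or 4, without Malt1-/- Th17 72 h replicate 2 or 3, without WT Th1 72 h replicate 3 or 4, or without Malt1-/- Th1 72 h replicate 3. It was 2 without Malt1-/- Th17 72 h replicate 5 or Malt1-/- Th1 72 h replicate 1, and 1 without WT Th17 72 h replicate 3 or Malt1-/- Th1 72 h replicate 5. Leaving out the 8 arrays nearer to a group not their own gave 9, and median scaling gave 0. Incenp was called in 29 of 30 settings, the exception being median scaling (adjusted p = 0.0974), whereas Cenpa was called in 11 of 30. The myeloid markers S100a8, S100a9 and Lyz1 were also called higher in this difference and Il17a was called lower, at -3.49 (adjusted p = 0.00703), and their part in the values of the mitosis genes was not tested.

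In Th17 cells at 48 h 3 of 39 mitosis genes were higher in Malt1-/- and 1 lower, against 3.41% and 2.97% of all genes, with a median of 0.08 and 22 of 39 differences above 0. Ccna2, cyclin A2, read 6.85, 7.08, 6.85, 6.61 and 7.06 in Malt1-/- and 6.0, 6.46, 5.50, 6.28 and 5.47 in WT. The ranges were apart at these low levels, with a difference of 0.95 ± 0.28 (1.93-fold, adjusted p = 0.0403). Kif23 (MKLP1), a motor of the central spindle, read 11.84, 11.95, 11.97, 11.84 and 11.95 in Malt1-/- and 11.20, 11.29, 11.49, 11.58 and 11.51 in WT. Its ranges were apart too, by 0.50 ± 0.13 (1.41-fold, adjusted p = 0.0201). Cdc25c, a phosphatase that activates Cdk1, read 6.84, 6.51, 6.92, 6.98 and 7.18 in Malt1-/- and 7.78, 8.07, 8.02, 7.64 and 6.74 in WT. WT replicate 5 fell within the Malt1-/- range, and Cdc25c fell by 0.76 ± 0.23 (1.70-fold, adjusted p = 0.0383). Nusap1 was the remaining call, at 0.37. The size of some of these differences moved with the processing. That of Ccna2 was 0.36 without background correction and in the authors' value table, and its call was lost in 10 of 20 settings. That of Cdc25c was -0.42 in the authors' value table, with the call lost in 11 of 20, and that of Kif23 was 0.18 with the mean of its kept probes, where it was not called.

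The count of 4 fell to 0 when WT Th17 48 h replicate 1 was left out. It was 1 when WT replicate 3 was left out, or any of the Malt1-/- replicates 1, 2 and 3, and 2 when WT replicate 2 or 4, or Malt1-/- replicate 4 or 5, was left out. It was 9 in a fit on the comparison's own arrays (8 higher, 1 lower) and 13 with array weights (8 higher, 5 lower). The shares of all genes called in these settings are not given here, so these counts do not show a stronger difference of the mitosis genes. Of the other mitosis genes 2 were higher and 2 lower, the largest being Mis12 at 1.25 (adjusted p = 0.012), Espl1 (separase) at -0.68 (0.033) and Wee1 at 0.59 (0.0404). Among replication genes 4 were higher and 0 lower. Of the myeloid markers S100a8 was higher by 2.30 and Ctss by 1.59, with a mean over the 9 of 5.74 to 7.18 on the Malt1-/- arrays and 5.32 to 5.57 on the WT arrays, and of the B cell markers H2-Ab1 was lower, at -2.21. Of the T helper cell markers Il17a was lower, at -2.85 (adjusted p = 0.000934), and Il17f, at -1.90 (0.02). The part of these was not tested.

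In Th1 cells at 48 h 0 of 39 mitosis genes were called in either direction by limma, against 0.783% of all genes higher and 0.606% lower. At an unadjusted p under 0.05 there were 4 higher and 2 lower, against 7.03% and 5.27% of all genes, and the median difference was 0.04. The difference between the Th17 and the Th1 effect at 48 h was called for 0 of 39, against 0.0746% of all genes above 0 and 0.0652% below, with 2 above and 0 below at an unadjusted p under 0.05, against 5.65% and 5.31% of all genes.

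Between the times, the Malt1-/- effect in Th17 cells at 72 h minus that at 48 h was called above 0 for 1 of 39 genes and below 0 for 0, against 0.0839% and 0.0373% of all genes, with a median of 0.31. The gene was Kif2c, at 1.00 ± 0.18 (adjusted p = 0.0119). At 48 h Kif2c read 9.36, 9.36, 9.52, 9.50 and 9.48 in Malt1-/- Th17 and 9.38, 9.68, 9.72, 9.83 and 9.41 in WT Th17 cells. The genotypes overlapped there, unlike at 72 h. The count of 1 was 7 without WT Th17 48 h replicate 5, and 4 without WT Th17 72 h replicate 2 or Malt1-/- Th17 72 h replicate 4. Of the replication genes Tk1 was called above 0 in this difference, at 1.03 (adjusted p = 0.0395). The myeloid marker Ctss was called below 0, at -2.44 (0.046), and its part was not tested. In Th1 cells the same difference was called for 0 of 39, against 0.0559% of all genes above 0 and 0.0186% below, with a median of -0.24. At an unadjusted p under 0.05 there were 0 above and 6 below, against 2.79% and 2.8% of all genes.

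The lineage comparisons use the same arrays in other pairs, so they are not independent of the genotype comparisons. In Malt1-/- cells at 72 h 24 of 39 mitosis genes were higher in Th17 than in Th1 cells and 0 lower, against 11.6% of all genes higher and 9.16% lower. In 18 of the 39 the 5 Th17 arrays all lay above the 5 Th1 arrays, against 9.42% of all genes. The median difference was 0.54, beside 0.02 over all genes, and 34 of 39 were above 0. Among the 32 genes detected on all arrays the count was 22, with a median of 0.56. In WT cells at 72 h 1 of 39 was higher and 1 lower, against 9.66% and 9.2% of all genes, with a median of -0.02.

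The largest of these differences in Malt1-/- cells, in the processing used here, was that of Ccna2, at 6.28, 6.53, 5.97, 7.52 and 6.12 in Th17 and 5.35, 5.00, 5.06, 5.83 and 5.98 in Th1 cells. The groups overlapped through 1 Th17 array and 1 Th1 array, and the difference was 1.04 ± 0.28 (2.06-fold, adjusted p = 0.00615). In the authors' value table, and without background correction, it was 0.36 and below those of Incenp and Prc1, which were at least 0.83 and 0.88 in all 20 settings. Incenp, with the levels given above, differed by 0.95 ± 0.12 (1.93-fold, adjusted p = 1.8e-07) and showed no overlap. Prc1, which bundles microtubules in the spindle midzone, read 12.12, 12.51, 12.25, 12.13 and 12.53 in Th17 and 11.26, 11.66, 11.29, 11.45 and 11.21 in Th1 cells. It was higher on every Th17 array, by 0.94 ± 0.13 (1.91-fold, adjusted p = 7.12e-07).

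The calls came from all 8 roles. They were 4 of 6 tested mitotic entry genes, 2 of 4 anaphase genes, 1 of 3 checkpoint genes, 3 of 4 passenger genes, 3 of 5 centromere and kinetochore genes, 5 of 7 spindle genes, 3 of 4 cytokinesis genes and 3 of 6 condensin and topoisomerase genes. Cytokinesis had the highest median, 0.76. Among the genes given per array above, Bub1b differed by 0.71 (adjusted p = 6.44e-06), Cdc20 by 0.57 (0.00424), Plk1 by 0.53 (0.0288), Top2a by 0.68 (0.00489) and Kif11 by 0.58 (0.0329). Kif11 read 8.38, 9.07, 8.76, 8.71 and 8.69 in Malt1-/- Th1 cells at 72 h, all below the Malt1-/- Th17 arrays. Cdk1 was not called, with Malt1-/- Th1 levels of 10.87, 11.31, 11.57, 11.26 and 11.22 across the Th17 range. Aurkb was not called either, its Th1 range of 10.30 to 10.84 reaching into the Th17 range of 10.80 to 11.10.

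No single array moved the count of 24 by more than 1.5 times: it ran from 18 to 24. Leaving out the 8 arrays nearer to a group not their own gave 24, and median scaling gave 15. Of the 54 other mitosis genes 21 were higher and 1 lower, and of the 36 replication genes 9 were higher and 1 lower. Of the cyclin kinase inhibitor and quiescence genes, Klf2 (2.39), Cdkn2c (1.80), Foxo1 (1.08) and Rb1 (0.60) were higher. Cdkn1a (-1.63) and Foxo3 (-1.06) were lower. Klf2, Foxo1, Rb1 and Foxo3 were called in the same directions between WT lineages at 72 h. Of the 9 myeloid markers 5 were higher in Malt1-/- Th17 than in Malt1-/- Th1 cells at 72 h and 5 at 48 h. Of the T helper cell markers at 72 h Il17a and Il17f were higher, and Ifng, Tbx21, Cd28 (-1.53) and Cd4 (-0.92) lower. The CD8 and NK marker Klrd1 was higher (3.10) and Nkg7 lower (-2.71), the same directions as between WT lineages at 72 h. The part of these markers was not tested.

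**Figure D5:**
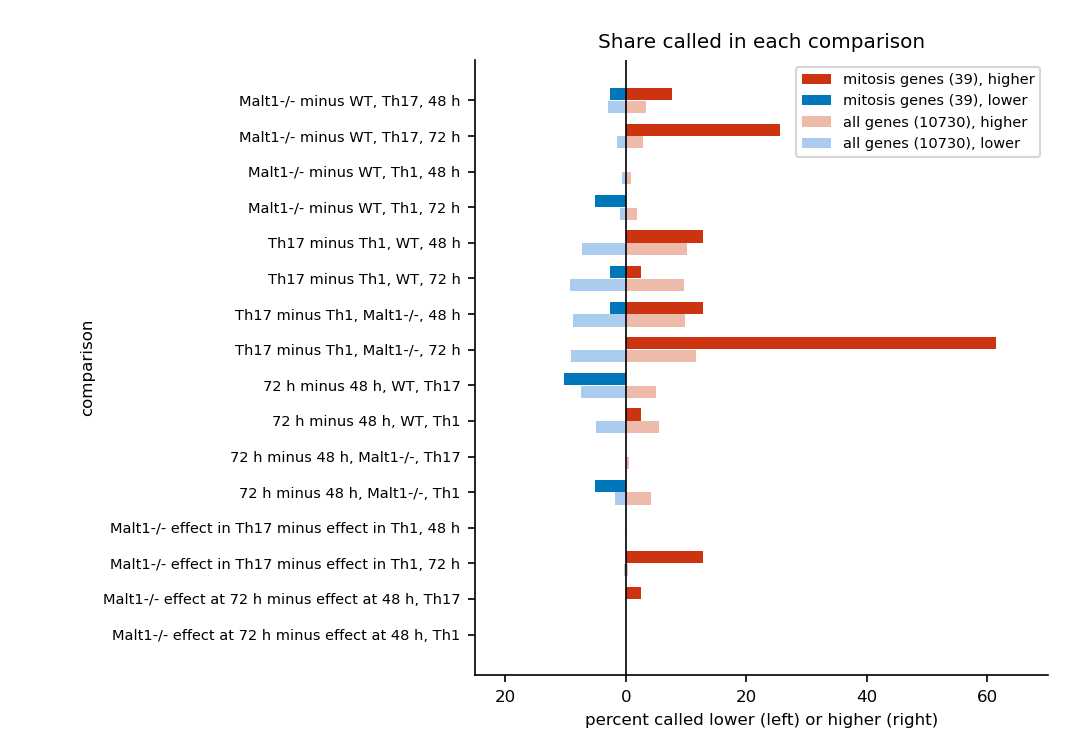
Percent of genes called lower (left) or higher (right, horizontal axis) in each comparison (rows), for the 39 tested mitosis genes beside all 10730 genes tested. All genes were called higher at 2.89% in Malt1-/- against WT Th17 cells at 72 h and at 11.6% in Th17 against Th1 Malt1-/- cells at 72 h, where 10 and 24 of the 39 mitosis genes were called higher.

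In WT cells at 72 h the gene lower in Th17 was Cdk1, at 11.35, 11.30, 11.02, 11.09 and 10.76 against 11.43, 11.66, 11.74, 11.35 and 11.67 in Th1. The highest Th17 array equalled the lowest Th1 array at 2 decimals, and Cdk1 fell by 0.47 ± 0.14 (adjusted p = 0.0157). Prc1 was the gene higher in Th17, at 12.08, 12.22, 11.62, 11.79 and 11.72 against 11.45, 11.50, 11.58, 11.60 and 11.34. All Th17 arrays exceeded all Th1 arrays, by 0.39 (adjusted p = 0.0289). Of the 54 other mitosis genes 0 were higher and 7 lower in this comparison, and of the 36 replication genes 0 were higher and 8 lower. The count of 2 was 1 without WT Th17 72 h replicate 1 or 5 or WT Th1 72 h replicate 1, and 0 with median scaling.

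At 48 h 5 of 39 genes were higher in WT Th17 than in WT Th1 cells and 0 lower, against 10.2% and 7.26% of all genes, a share near that of all genes. The largest was Prc1 at 0.57 (adjusted p = 0.00148), with 11.84, 11.71, 11.96, 12.27 and 11.56 in Th17 and 11.33, 11.16, 11.63, 11.33 and 11.07 in Th1, which overlapped. Kif22, at 0.46 (0.00412), read 11.07, 11.23, 11.15, 11.20 and 11.16 against 10.86, 10.65, 10.81, 10.68 and 10.51, with no overlap. Cdca3, a cofactor for destruction of the kinase Wee1, was the next at 0.41 (0.0123), with 12.00, 12.07, 11.98, 12.09 and 11.72 against 11.63, 11.64, 11.43, 11.74 and 11.35, which overlapped by 1 array on each side. The count of 5 was 3 without WT Th1 48 h replicate 5, and 0 with median scaling. Of the other mitosis genes 1 was higher and 2 lower, and of the replication genes 0 were higher and 1 lower.

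In Malt1-/- cells at 48 h 5 of 39 were higher in Th17 than in Th1 cells and 1 lower, against 9.83% and 8.72% of all genes. The share higher was near that of all genes, and the share lower was below it. Ccna2 differed by 0.80 (adjusted p = 0.0446), with 5.19, 5.57, 6.90, 6.09 and 6.70 in Th1 reaching into the Th17 range given above, and it was 0.29 and not called in the authors' value table. Nusap1, a microtubule-bundling protein, differed by 0.47 (0.00232), at 12.65, 12.58, 12.65, 12.41 and 12.51 in Th17 and 12.03, 12.06, 12.17, 12.13 and 12.04 in Th1, with no overlap. Prc1 differed by 0.47 (0.00779), at 11.87, 12.04, 12.02, 11.89 and 12.19 in Th17 and 11.61, 11.54, 11.44, 11.47 and 11.59 in Th1, again with no overlap. Cdk1 was the gene that was lower, at 10.85, 11.21, 10.90, 11.12 and 11.26 in Th17 and 11.44, 11.35, 11.63, 11.57 and 11.55 in Th1. It fell by 0.44 (0.0248) with no overlap, a direction opposite to that of the other 5. The count of 6 was 2 without Malt1-/- Th17 48 h replicate 3, and 3 without Malt1-/- Th17 48 h replicate 5 or Malt1-/- Th1 48 h replicate 3 or 4.

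From 48 h to 72 h, in WT Th17 cells 0 of 39 mitosis genes rose and 4 fell, against 4.97% of all genes higher and 7.36% lower. The share that fell was thus near that of all genes. Kif2c fell by 0.59 ± 0.13 (adjusted p = 0.00432), Cdc20 by 0.43 (0.0497) and Birc5 by 0.40 (0.0349), and the remaining call was Incenp. Cdc20 read 11.91, 11.99, 11.96, 12.05 and 11.61 at 48 h against 11.11 to 11.68 at 72 h, which overlapped. Birc5, survivin, read 12.40, 12.40, 12.45, 12.65 and 12.33 at 48 h and 12.05, 12.34, 11.72, 12.00 and 12.14 at 72 h, also with an overlap. Replication genes showed 0 higher and 13 lower over the same times. The T helper cell markers Cd3d (0.80, adjusted p = 0.00384) and Cd3g (0.89, 0.00702) were called higher in this comparison. So was the myeloid marker Ctss (1.38, 0.0162), and the part of these markers was not tested. In WT Th1 cells the replication genes Mcm3, Mcm5, Mcm10, Prim2 and Fen1 were called lower from 48 h to 72 h. In Malt1-/- Th1 cells Mcm3, Rrm2, Cdt1, Rfc5 and Chaf1b were. No replication gene was called higher over time in either Th1 group, or called at all in Malt1-/- Th17 cells.

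In Malt1-/- Th17 cells 0 of 39 were called in either direction by limma, against 0.578% of all genes higher and 0.121% lower. At an unadjusted p under 0.05, however, 15 were higher and 0 lower, against 7.96% and 6.1% of all genes. The median was 0.24, and in 10 genes all 72 h arrays lay above all 48 h arrays, against 4.01% of all genes. Of the 9 tested myeloid markers Lyz1 alone was called, higher at 1.56 (adjusted p = 0.0347), and its part was not tested. The difference between these 2 time courses is the same quantity as the difference of genotype effects given above, where Kif2c was called. The WT count of 4 was 1 without WT Th17 48 h replicate 1, 2 or 4 or WT Th17 72 h replicate 1 or 3, 2 without 48 h replicate 3 or 72 h replicate 4, and 0 with median scaling.

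WT Th1 cells had 1 of 39 higher at 72 h and 0 lower, against 5.57% and 4.92% of all genes. That gene was Nusap1, at 12.22, 12.75, 12.62, 11.97 and 12.27 against 11.88, 11.59, 12.01, 11.93 and 11.51, which overlapped, and it rose by 0.58 ± 0.11 (adjusted p = 0.00215). Malt1-/- Th1 cells had 0 higher and 2 lower, against 4.15% and 1.8% of all genes, with a median of -0.20. At an unadjusted p under 0.05 there were 0 higher and 10 lower, against 11.4% and 10.5% of all genes, and 8 were called with array weights. The B cell marker H2-Ab1 was called higher in this comparison, at 2.17 (adjusted p = 0.042), and its part was not tested. Ncaph, a condensin subunit, fell by 0.41 (0.0244), from 10.70, 10.60, 10.45, 10.53 and 10.65 to 9.98, 10.60, 10.20, 10.04 and 10.07. Kif22 fell by 0.39 (0.0388), from 11.11, 10.76, 10.82, 10.94 and 10.88 to the 72 h levels given above. In both genes replicate 2 at 72 h stayed within the 48 h range. The count of 2 was 7 without Malt1-/- Th1 72 h replicate 2 and 4 without 48 h replicate 2. It was 1 without 48 h replicate 3 or 4 or 72 h replicate 3, and 0 without 48 h replicate 1 or 5 or 72 h replicate 1 or 5. The WT count of 1 was 3 without WT Th1 72 h replicate 4.

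Not all mitosis genes could be measured well. The 5 genes with a probe that did not pass were Ccnb2 (cyclin B2) and Cenpe (a kinetochore motor), detected on 0 of 40 arrays, Racgap1, which acts in cytokinesis, on 1, and Kif20a, a cytokinesis kinesin, on 2. Bub1, a checkpoint kinase, had probes detected on 0 and 2 arrays. A probe without detection does not show that its transcript was low. Cdk1, Nusap1 and Kif11, for instance, each had a probe detected on 0 of 40 arrays beside another detected on all 40. The levels of the 5 genes are therefore not known. Among the 39 that passed, Nuf2, a kinetochore protein, was detected on 6 arrays, Hmmr on 10, Pttg1 (securin) on 11 and Cenpf on 22, so their differences lie near background.

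Where a gene had several probes they did not always give the same call, here from p-values adjusted over all kept probes and not over genes. In Th17 cells at 72 h, of the 23 genes with more than 1 passed probe, all probes were called for 3 (Bub1b, Birc5 and Kif4), some for Cdc20 and Kif23 and none for 18, and all probes shared 1 sign in 19. Top2a, called over genes, is among the 18, since over probes its brightest probe had an adjusted p of 0.0533 and its other passed probe, at 0.69, one of 0.275. The other probes of Cdc20 gave 0.49, 0.47 and 0.53, and those of Kif23 gave 0.02, 0.43 and 0.25. Smc4 had probes at -0.42, 0.53 and -0.24, so the negative value of its brightest probe was not shared by all 3. In Malt1-/- cells at 72 h the lineage difference was called for all probes of 6 genes, for some probes of 9 and for none of 8. The difference of effects at 72 h was not called over probes for the brightest probes of Bub1b, Kif22 and Cenpa. Their adjusted p was 0.0534, 0.0552 and 0.0698. The other passed probe of Bub1b gave 1.06 (adjusted p = 0.00699) and that of Cenpa 0.35 (0.848).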

How the data were processed

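RNA of 40 samples was hybridised to an Illumina mouse expression array, and the authors deposited 1 table of raw probe intensities with a detection value per array. Per the file headers these are signal intensities and detection columns. The deposited detection values are fractions from 0 to 1 that equal 1 minus the detection p. The scanner and its software are not given in the sources used here. A deposited value table of the authors holds log2 values that equal quantile-normalised raw signals centred on each probe (largest difference 0.0149), so the raw signals were used. The table held 0 columns of other samples.

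In R 4.3.3 with limma 3.58.1, intensities were background-corrected from the detection p (neqc, offset 16), quantile-normalised and log2-transformed. Of 45281 probes, 20739 with detection p under 0.05 on at least 5 of 40 arrays were kept. The platform gene table, with symbols updated through RefSeq, gave 1 symbol for 34885 probes and several for 18, and 10378 were not listed. The brightest kept probe stood for each of 10730 genes. One fit held 8 group means, 16 comparisons were drawn from it, and each was adjusted by Benjamini-Hochberg over all genes, with calls at an adjusted p under 0.05. Array number, 5 per group, limits the precision.

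The genes and lists were chosen with earlier results of these data known. Values per array are given for Cdk1, Cdc20, Plk1, Aurkb, Bub1b, Kif11, Top2a and Smc4, for Mki67, Ccnb1, Cenpe and Kif20a had they been testable, and for the 3 called genes with the largest difference in each comparison. The remaining called genes are given by count and range, and outside the set Malt1 and up to 3 called genes of the list of other mitosis genes are named in each genotype comparison. Alternatives were other background, scaling, filter, probe and fit choices, the replicate number as a block, and leaving out arrays.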

Additional observations from a re-analysis of the deposited data

Results flagged for a closer look

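Of 168 sets of 5 levels examined for an array far from its group, 8 had one, about the 1 in 20 that chance gives. Incenp read 10.69 on WT Th17 48 h replicate 2, with the other 4 arrays at 10.20 to 10.28, and 9.65 on WT Th1 72 h replicate 1, with the others at 10.01 to 10.05. Plk1 read 11.11 on WT Th17 72 h replicate 2 (others 10.52 to 10.68). Cdca3 read 11.35 on Malt1-/- Th17 48 h replicate 1 (others 11.80 to 11.95), and Nusap1 read 12.82 on Malt1-/- Th17 72 h replicate 4 (others 12.71 to 12.72). Cdc20 read 12.03 on WT Th1 48 h replicate 3 (others 11.72 to 11.80) and 12.07 on WT Th1 72 h replicate 4 (others 11.33 to 11.52). Bub1b read 11.37 on Malt1-/- Th1 72 h replicate 2 (others 11.02 to 11.11).

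The effect of Malt1-/- differed between groups in 6 tests of the difference itself. Between Th17 and Th1 cells at 72 h it differed by 0.96 for Incenp, 0.80 for Kif2c, 0.69 for Kif22, 0.67 for Bub1b and 0.60 for Cenpa on the log2 scale, each higher in Th17. Between 72 h and 48 h in Th17 cells it differed by 1.00 for Kif2c.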

How the results depend on the processing

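Of 66 pairs of a mitosis gene and a comparison that were called, 16 stayed called in every setting tried and 0 turned direction in any. Counts of called genes that moved by more than 1.5 times are given here, the new count first and the original after it or in brackets, or the new count alone where the original is in the report. Median scaling gave 3 in place of 10 for Malt1-/- against WT in Th17 cells at 72 h, 0 of 2 in Th1 at 72 h, 0 of 5 and 0 of 2 for Th17 against Th1 in WT at 48 h and 72 h, 1 of 6 and 15 of 24 in Malt1-/-, 0 of 5 for the difference of effects at 72 h, and 0 for the time comparisons in WT Th17 (4), WT Th1 (1) and Malt1-/- Th1 (2) and for the time difference of the effect in Th17 (1). With it the median difference over all genes was 0.174 in Th17 at 48 h, 0.126 in Th17 at 72 h and -0.123 between WT lineages at 48 h. Relative to all genes, the median of the mitosis genes in Th17 at 72 h was 0.29 before and 0.38 after it. The share of calls that were higher moved from 53.4% to 93.1%, 65.4% to 77.1%, 56.4% to 38.7% and 66.7% to 83.7% in the genotype comparisons (Th17 48 h, Th17 72 h, Th1 48 h, Th1 72 h), from 58.4% to 31.9% and 53% to 70.7% between lineages at 48 h (WT, Malt1-/-), from 40.3% to 80.7% and 69.7% to 91.1% over time (WT Th17, Malt1-/- Th1), and from 45.3% to 30.6% for the difference at 72 h. A fit on the comparison's own arrays gave 9 of 4 in Th17 at 48 h, 2 of 10 in Th17 at 72 h, 0 of 2 in Th1 at 72 h, 2 of 5 and 0 of 2 between WT lineages, 1 of 5 for the difference at 72 h, 0 for WT Th17, WT Th1 and Malt1-/- Th1 over time, 4 of 0 for Malt1-/- Th17 over time and 0 for the time difference in Th17. Array weights gave 13 in Th17 at 48 h, 13 between Malt1-/- lineages at 48 h, 1 between WT lineages at 72 h, 3 for the difference at 72 h, 8 in each Malt1-/- time comparison, 2 in WT Th1 over time and 4 for the time difference in Th17. Leaving out the 8 arrays closer to another group gave 1 in Th1 at 48 h, 8 and 1 between WT lineages, 9 for the difference at 72 h, 8 in Malt1-/- Th1, 5 in Malt1-/- Th17 and 4 in WT Th1 over time, and 6 for the time difference in Th17. The mean of kept probes gave 4 between WT lineages at 72 h, 5 in Malt1-/- Th1 over time and 2 for the time difference. No background correction and the authors' value table each gave 4 in Th1 at 72 h, 2 in Malt1-/- Th17 and 2 in WT Th1 over time, and 3 for the time difference. No detection filter gave 2 in Th17 at 48 h, and a stricter one 3 for the time difference. Without 1 array at a time the counts ran from 0 to 5 in Th17 at 48 h, 4 to 12 in Th17 at 72 h, 1 to 5 in Th1 at 72 h, 3 to 6 and 1 to 3 between WT lineages (48 h, 72 h), 2 to 6 and 18 to 24 between Malt1-/- lineages, 1 to 6 in WT Th17, 1 to 3 in WT Th1 and 0 to 7 in Malt1-/- Th1 over time, 1 to 9 for the difference at 72 h and 1 to 7 for the time difference. The cause was not tested.

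The replicate block, with the replicate number as a term, gave 9 of 10 in Th17 at 72 h, 4 in Th17 at 48 h, 3 in Th1 at 72 h, 24 between Malt1-/- lineages at 72 h and 5 for the difference at 72 h. Residuals of same-numbered arrays had a median correlation of 0.0140 (range -0.416 to 0.513), and 38 of 140 pairs were above 0.1. Of the 40 arrays, 6 were closest to their own number. These values cannot settle whether same-numbered arrays share a mouse, culture or batch, which the labels do not give.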
